A study of Mus musculus with 6 samples.

Results

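The genes described here are 10 genes of vascular smooth muscle cells and pericytes, *Acta2*, *Myh11*, *Tagln*, *Cnn1*, *Smtn*, *Lmod1*, *Rgs5*, *Cspg4*, *Kcnj8* and *Abcc9*, taken by name from the 18089 genes listed in the table. All 10 were found and all 10 passed the filter on low counts. They were measured by RNA-seq in ischemic gastrocnemius muscle of male C57BL/6 mice aged between 8 and 10 weeks, 7 days after hindlimb ischemia (HLI), in which the femoral artery of the left leg was ligated and a segment of it removed. There were 3 WT libraries and 3 libraries from Gpr174-/Y mice, which the sample labels call GPR174-KO and which lack the X-linked receptor gene *Gpr174* in all cells. Muscles that had not been ischemic were not analysed here, so every comparison is between the genotypes at day 7.

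Smooth muscle cells and pericytes are the mural cells of blood vessels. Smooth muscle cells wrap arteries and arterioles and contract through actin and smooth muscle myosin, and pericytes sit on capillaries and small venules. When a limb artery is closed, collateral arteries widen and acquire new smooth muscle, and new capillaries recruit pericytes through signals such as platelet-derived growth factor. No gene of this kind is exact in injured muscle, because activated fibroblasts and immature muscle fibres also make *Acta2* and *Tagln*, and muscle fibres also make *Abcc9*. In whole muscle, fewer cells of a type and less RNA per cell cannot be told apart.

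The mural genes did not move together in Gpr174-/Y muscles. *Acta2* was 2.30-fold and *Tagln* 2.01-fold higher, and *Cspg4* was 1.24-fold higher. *Kcnj8* was 2.18-fold, *Rgs5* 1.76-fold, *Abcc9* 1.62-fold, *Lmod1* 1.45-fold and *Myh11* 1.38-fold lower. *Smtn* and *Cnn1* did not pass the test.

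Thus 8 of the 10 genes had an adjusted p under 0.05 in edgeR's quasi-likelihood test, 3 of them higher and 5 lower, where 54.6% of the 14395 tested genes passed, 27.0% higher and 27.6% lower. With an absolute log2 fold change above 1 as well, *Acta2*, *Tagln* and *Kcnj8* passed, where 8.29% of all tested genes did. Every scaled count of one genotype lay above or below all those of the other in 8 of the 10 genes, as it did in 65.6% of the tested genes. The median log2 fold change of the 10 genes was -0.33, against 0.00 over all tested genes.

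Total counts were close, from 18417107 to 19394505 per library, but their makeup was not. Markers of mature muscle fibres took 11.7% to 15.8% of the counts in WT and 6.22% to 6.56% in Gpr174-/Y libraries. Counts were scaled by TMM, which sets the bulk of genes equal between libraries, and are given as scaled CPM, in which a gene is given as its share of a scaled library total. Scaled to total counts alone, the median of all tested genes was 0.28 on the log2 scale, and 8 of the 10 genes then passed, where 64.7% of all tested genes did. Of these, 4 were higher, where 50.7% of all tested genes were, and 4 were lower, as were 2010 of the 14395. Replicate 2 lay between replicates 1 and 3 in 86.1% of 3675 abundant genes in WT and 77.1% in Gpr174-/Y libraries, where exchangeable libraries would give 33.3% on average. Genes vary together, so a share in 1 experiment can lie far from that average, and whether the libraries are independent, as all SEs and p-values take them to be, was not tested. When only libraries 1 and 3 of each genotype were compared, a choice made after the data were seen, 0 of the 10 genes and 0 of all genes had an adjusted p under 0.05 in edgeR, while 8 of the 10 and 5026 of all genes had an unadjusted p under 0.05. Reads of the disrupted gene, *Gpr174*, numbered 8, 2 and 5 in the WT libraries against 1, 0 and 0 in the Gpr174-/Y libraries.

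**Figure D1:**
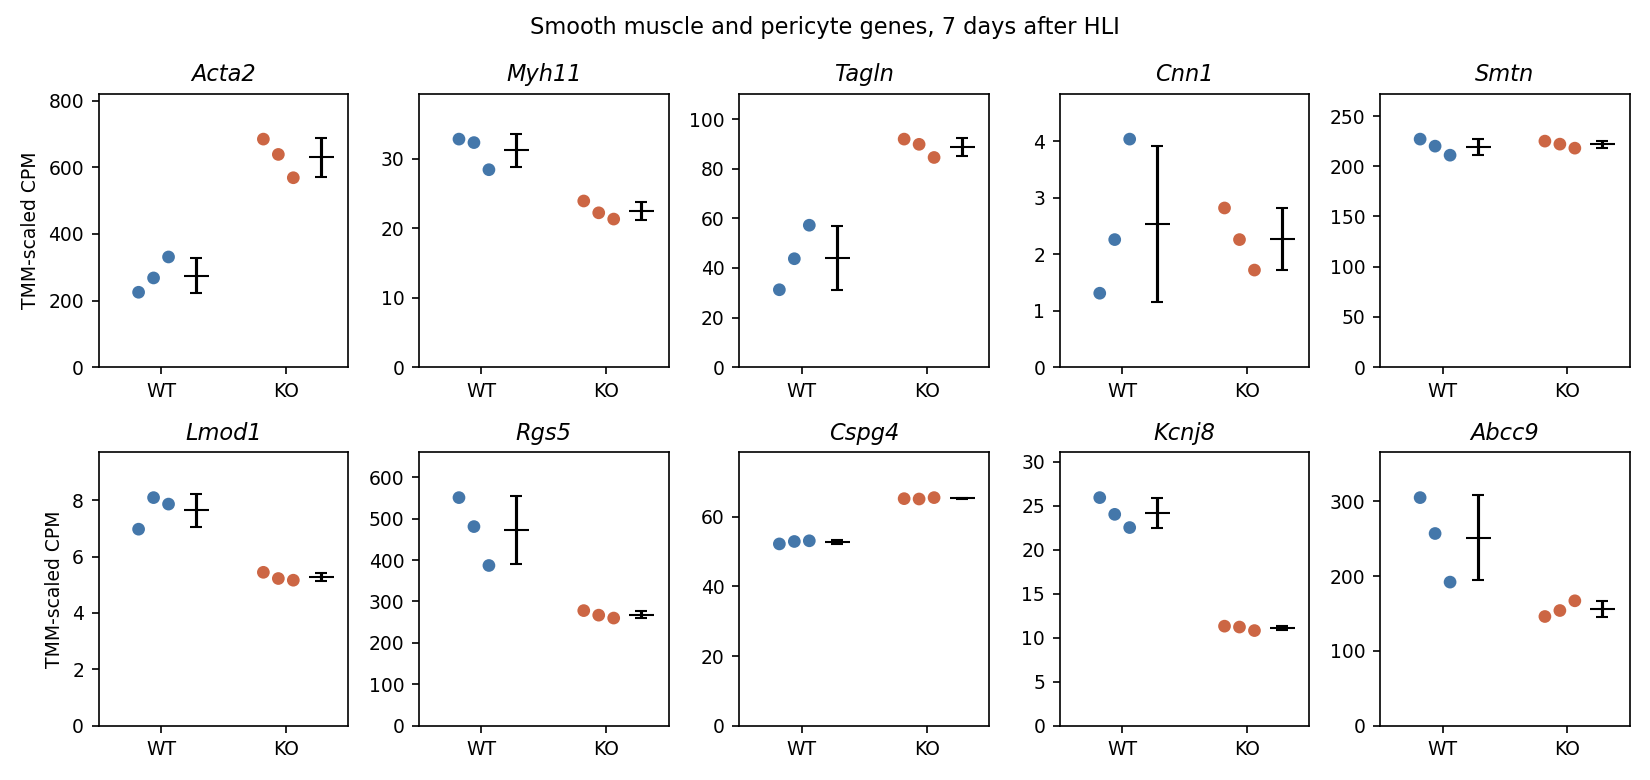
TMM-scaled CPM of the 10 genes, each panel with its own axis from 0. Points are single libraries (3 WT in blue, 3 Gpr174-/Y, marked KO, in orange) and bars give the mean and SD. *Acta2*, *Tagln* and *Cspg4* lie higher in KO, *Myh11*, *Lmod1*, *Rgs5*, *Kcnj8* and *Abcc9* lower, and *Smtn* and *Cnn1* overlap.

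*Acta2* encodes smooth muscle alpha-actin, the actin that vessel walls are stained for. Its start site is the natural place to show sequence, because the gene had the highest level and the largest increase of the 10. Of the 8 genes with a promoter in the RefSeq table (GRCm38.p6), *Acta2* was the single gene with a match to the CArG box, the site bound by serum response factor, within 250 bases before and 50 after its start. *Tagln* and *Myh11* were not searched. The search took 10 letters beginning CC and ending GG whose 6 core letters held at most 1 G or C, which reads alike on both strands, and 9.98% of 32851 promoters of that length held one. The 250 bases before the *Acta2* start, chr19:34255374-34255623 on the minus strand, are given 5′ to 3′ with the matches in capitals. They begin 84 and 34 bases before the start.
Acta2: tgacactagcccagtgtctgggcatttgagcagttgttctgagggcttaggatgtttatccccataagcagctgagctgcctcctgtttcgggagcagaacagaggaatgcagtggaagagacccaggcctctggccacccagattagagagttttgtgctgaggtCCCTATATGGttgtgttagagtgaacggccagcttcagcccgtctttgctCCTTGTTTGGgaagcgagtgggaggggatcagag
The same stretch of *Kcnj8*, chr6:142571615-142571864 on the minus strand, is shown because this gene had the largest decrease, and these letters hold no match.
Kcnj8: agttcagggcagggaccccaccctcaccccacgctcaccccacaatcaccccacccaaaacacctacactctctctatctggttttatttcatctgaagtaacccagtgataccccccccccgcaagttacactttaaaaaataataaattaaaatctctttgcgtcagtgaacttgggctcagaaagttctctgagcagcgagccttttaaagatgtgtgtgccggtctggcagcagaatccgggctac
The promoter match is a description of letters, and binding was not measured in these files.

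*Acta2* had 225, 268 and 331 scaled CPM in WT replicates 1, 2 and 3, against 685, 639 and 569 in the Gpr174-/Y libraries. Every Gpr174-/Y library was above every WT library. The log2 fold change was 1.20 (standard error, SE, 0.15, adjusted p = 0.00139), and over 18 alternatives it ranged from 1.08 to 1.49. *Acta2* is close in coding sequence to the actins of striated muscle, of which *Acta1*, skeletal actin, was far more abundant (52803 ± 467 TPM in WT, SD, n = 3). *Acta1* moved the other way, with a log2 fold change of -1.15 (SE 0.15, adjusted p = 0.00162), and *Actc1*, cardiac actin, had -0.28 (SE 0.15, adjusted p = 0.144).

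*Tagln* encodes transgelin (SM22-alpha), an actin-binding protein that appears early when smooth muscle cells differentiate. It had 31.2, 43.7 and 57.2 scaled CPM in the WT libraries and 91.9, 89.8 and 84.5 in the Gpr174-/Y libraries, so the groups lay apart. The log2 fold change was 1.01 (SE 0.19, adjusted p = 0.0054). WT replicate 1 was the lowest library, and without it the log2 fold change was 0.82 (adjusted p = 0.00172). *Tagln* overlaps *Pcsk7* in the annotation, and strand use in the counting is not given in the sources used here. *Pcsk7* had 657 to 717 counts in WT and 785 to 828 in Gpr174-/Y libraries (log2 fold change -0.10, SE 0.04, adjusted p = 0.11).

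*Myh11*, the smooth muscle myosin heavy chain, is made by fewer cell types than *Acta2* or *Tagln*. Its scaled CPM were 32.8, 32.3 and 28.4 in the WT libraries and 23.9, 22.2 and 21.3 in the Gpr174-/Y libraries, with every Gpr174-/Y library lower. As TPM the groups overlapped, with 9.83, 10.5 and 9.94 in WT and 10.3, 9.46 and 9.23 in Gpr174-/Y libraries. The log2 fold change was -0.47 (SE 0.08, adjusted p = 0.00305). Scaled to total counts it was -0.19 (adjusted p = 0.0254), and on log2(FPKM + 1) it was -0.15 (adjusted p = 0.0692 in limma), the smallest decrease among the alternatives.

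*Lmod1*, leiomodin 1, which nucleates actin filaments in smooth muscle, was expressed at a low level. It had 6.97, 8.09 and 7.86 scaled CPM in the WT libraries and 5.44, 5.22 and 5.16 in the Gpr174-/Y libraries. Although these values did not overlap between groups (log2 fold change -0.53, SE 0.09, adjusted p = 0.00359), the adjusted p was 0.0641 with total-count scaling (-0.26). As TPM the groups overlapped, with 2.92, 3.53 and 3.64 in WT and 3.04, 3.0 and 3.08 in Gpr174-/Y libraries.

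*Smtn*, smoothelin, an actin-binding protein of contractile smooth muscle, had 227, 220 and 211 scaled CPM in the WT libraries and 225, 222 and 218 in the Gpr174-/Y libraries. These values overlapped, and the log2 fold change was 0.02 (SE 0.06, adjusted p = 0.832). Its call hung on the scaling. With total counts *Smtn* was higher by 0.29 (adjusted p = 0.00278), which is about the shift of all genes, and with total counts without the mature fibre markers by 0.17 (adjusted p = 0.0224).

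*Cnn1*, calponin 1, which restrains the myosin ATPase, was the sparsest of the contractile genes. Its counts were 21, 38 and 72 in the WT libraries against 59, 48 and 37 in the Gpr174-/Y libraries. WT libraries spanned all of the Gpr174-/Y values. With a log2 fold change of -0.18 and an SE of 0.39 (adjusted p = 0.718), a change in either direction was not detectable over the spread between these libraries.

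Among the pericyte genes, *Rgs5* encodes a regulator of G protein signalling that is a standard pericyte marker. It had 551, 481 and 387 scaled CPM in WT muscle, against 278, 267 and 260 in Gpr174-/Y libraries. Each Gpr174-/Y library was below each WT library, and the log2 fold change was -0.82 (SE 0.13, adjusted p = 0.00256).

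*Cspg4* encodes the NG2 proteoglycan, a surface marker of pericytes that other progenitor cells also carry. Its scaled CPM were the steadiest of the 10, 52.2, 52.9 and 53.1 in WT and 65.2, 65.1 and 65.5 in Gpr174-/Y libraries. The increase was small but far outside the spread between libraries (log2 fold change 0.31, SE 0.04, adjusted p = 0.00165). *Cspg4* and *Rgs5* therefore moved in opposite directions under every alternative.

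**Figure D2:**
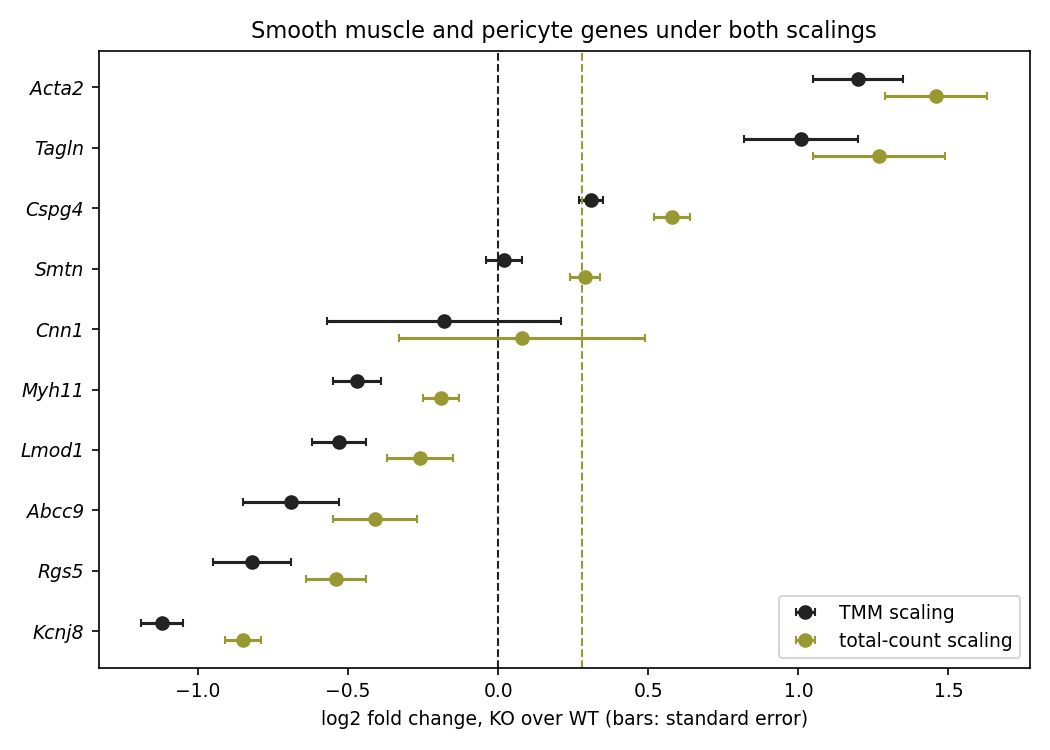
Log2 fold change, Gpr174-/Y over WT, of the 10 genes with TMM scaling (black) and with total-count scaling (olive). Bars are standard errors and dashed lines the median of all tested genes under each scaling (0.00 and 0.28). *Smtn* lies next to the median under both scalings (0.02 and 0.29), and *Cnn1* changes sign between them (-0.18 and 0.08).

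*Kcnj8* and *Abcc9* encode the pore (Kir6.1) and the regulatory subunit (SUR2) of the ATP-sensitive potassium (KATP) channel of vascular smooth muscle and pericytes, which relaxes vessels when it opens. *Kcnj8* had 25.9, 24.0 and 22.5 scaled CPM in the WT libraries and 11.3, 11.2 and 10.8 in the Gpr174-/Y libraries. This was the largest decrease of the 10 (log2 fold change -1.12, SE 0.07, adjusted p = 0.000409), and it was -0.85 with total-count scaling (adjusted p = 0.000659). *Abcc9* had 305, 257 and 192 scaled CPM in the WT libraries and 146, 154 and 167 in the Gpr174-/Y libraries. Its groups lay apart by less, with a log2 fold change of -0.69 (SE 0.16, adjusted p = 0.0109).

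The subunits of the muscle fibre and endocrine KATP channels were also lower. *Kcnj11* encodes Kir6.2, the pore found in muscle fibres, and had 107, 96.2 and 74.1 scaled CPM in the WT libraries and 37.8, 37.6 and 37.1 in the Gpr174-/Y libraries (log2 fold change -1.30, SE 0.13, adjusted p = 0.000871). *Abcc8* encodes SUR1, best known from pancreatic beta cells, and had only 63 to 74 counts in WT and 38 to 44 in Gpr174-/Y libraries (-1.05, SE 0.14, adjusted p = 0.00179). Thus 4 of the 4 KATP subunits were lower, with a median log2 fold change of -1.09, where 27.6% of all tested genes were. *Kcnj8* and *Abcc9* are among the 10 genes already counted above. The count was also 4 with total-count scaling, where 2010 of the 14395 tested genes were lower. In the annotation *Kcnj8* and *Abcc9* are direct protein-coding neighbours on chromosome 6, and *Kcnj11* and *Abcc8* on chromosome 7. The ratio of *Kcnj8* to *Kcnj11* TPM was 0.283, 0.289 and 0.352 in WT and 0.340, 0.341 and 0.339 in Gpr174-/Y libraries, so the groups overlapped (2-sided exact permutation test, p = 0.4). Mature fibre markers were lower in the same libraries, 15 of 15, where 27.6% of all tested genes were, with a median log2 fold change of -1.44. The fast myosin gene *Myh2* led them (-2.80, SE 0.22, adjusted p = 0.00062). With total-count scaling 14 were lower, where 2010 of the 14395 tested genes were. The summed TPM of the mature fibre markers was 132154 to 169206 in WT and 74105 to 79051 in Gpr174-/Y libraries. Their part in the decrease of *Abcc9* and *Kcnj11* was not tested.

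**Figure D3:**
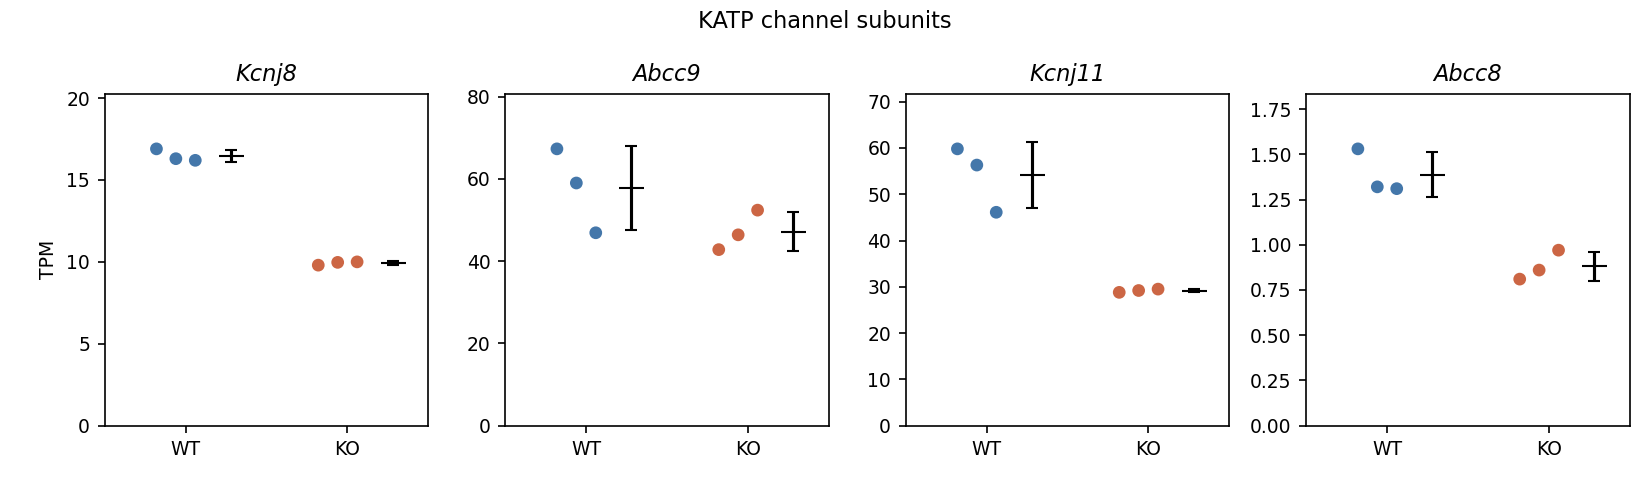
TPM of the KATP channel subunits in each library, each panel with its own axis from 0 (points: 3 WT in blue, 3 Gpr174-/Y, marked KO, in orange; bars: mean and SD). *Kcnj8*, *Kcnj11* and *Abcc8* have no overlap between groups, while *Abcc9* overlaps on the TPM scale, where WT replicate 3 had 46.9 and Gpr174-/Y replicate 3 had 52.4.

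Levels were compared between genes as TPM, which corrects for transcript length and is relative to all transcripts of a library. In WT muscle the order by mean TPM was *Acta2* (234 ± 51.8, SD, n = 3), *Rgs5* (199 ± 25.2), *Smtn* (115 ± 1.49), *Abcc9* (57.7 ± 10.3), *Tagln* (49.5 ± 17.0), *Kcnj8* (16.5 ± 0.382), *Cspg4* (11.3 ± 0.656), *Myh11* (10.1 ± 0.337), *Lmod1* (3.36 ± 0.388) and *Cnn1* (3.25 ± 1.93). *Acta2* and *Rgs5* overlapped there, as did *Abcc9* and *Tagln*, and *Lmod1* and *Cnn1*. In Gpr174-/Y muscle *Acta2* stood apart at 703 ± 41.8 TPM, followed by *Smtn* (152 ± 2.14), *Rgs5* (149 ± 0.905) and *Tagln* (129 ± 1.44). *Abcc9* (47.2 ± 4.85), *Cspg4* (18.3 ± 0.67), *Kcnj8* (9.93 ± 0.115), *Myh11* (9.66 ± 0.563), *Cnn1* (3.72 ± 0.78) and *Lmod1* (3.04 ± 0.04) came next, with *Kcnj8* and *Myh11* overlapping, and *Cnn1* and *Lmod1*. Between the genotypes *Tagln* passed *Abcc9*, *Cspg4* passed *Kcnj8* and *Smtn* passed *Rgs5*. *Cnn1* and *Lmod1* also changed order, but overlapped in both. The summed TPM of the 10 genes was 664 to 739 in WT and 1187 to 1259 in Gpr174-/Y libraries, and *Acta2* made up most of the difference.

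Ratios of TPM within a library do not depend on how libraries are scaled. A set of 12 such ratios was chosen after the values were seen, and 3 samples against 3 cannot go below p = 0.1 in a 2-sided exact permutation test. *Acta2* to *Myh11* was 18.9, 21.8 and 29.0 in WT and 72.0, 74.8 and 71.3 in Gpr174-/Y libraries, a 3.13-fold difference in means with no overlap (exact permutation p = 0.1). *Tagln* to *Myh11* differed 2.73-fold, from 4.91 ± 1.71 to 13.4 ± 0.69 (SD, n = 3, exact permutation p = 0.1). Within the pericyte genes, *Cspg4* to *Rgs5* was 0.0477, 0.0556 and 0.0692 in WT and 0.118, 0.123 and 0.127 in Gpr174-/Y libraries, 2.13-fold higher (exact permutation p = 0.1).

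*Pdgfrb*, the platelet-derived growth factor receptor of pericytes and fibroblasts, was singled out after its values were seen. It had 136, 143 and 153 scaled CPM in WT libraries and 195, 192 and 183 in the others, and rose in Gpr174-/Y muscles (log2 fold change 0.40, SE 0.06, adjusted p = 0.00274), and its ratio to *Rgs5* went from 0.238 ± 0.0565 to 0.537 ± 0.0071 (SD, n = 3, exact permutation p = 0.1). *Rgs5* was also set against *Cdh5*, VE-cadherin of endothelial cells. That ratio was 1.16, 1.09 and 0.994 in WT and 1.05, 1.09 and 1.14 in Gpr174-/Y libraries, and the groups overlapped (exact permutation p = 0.9). *Pdgfrb* to *Cdh5* differed, with 0.219, 0.246 and 0.297 in WT and 0.556, 0.594 and 0.612 in Gpr174-/Y libraries (no overlap, exact permutation p = 0.1). *Cdh5* itself had a log2 fold change of -0.82 (SE 0.10, adjusted p = 0.00122), the same size as that of *Rgs5* to 2 decimals.

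**Figure D4:**
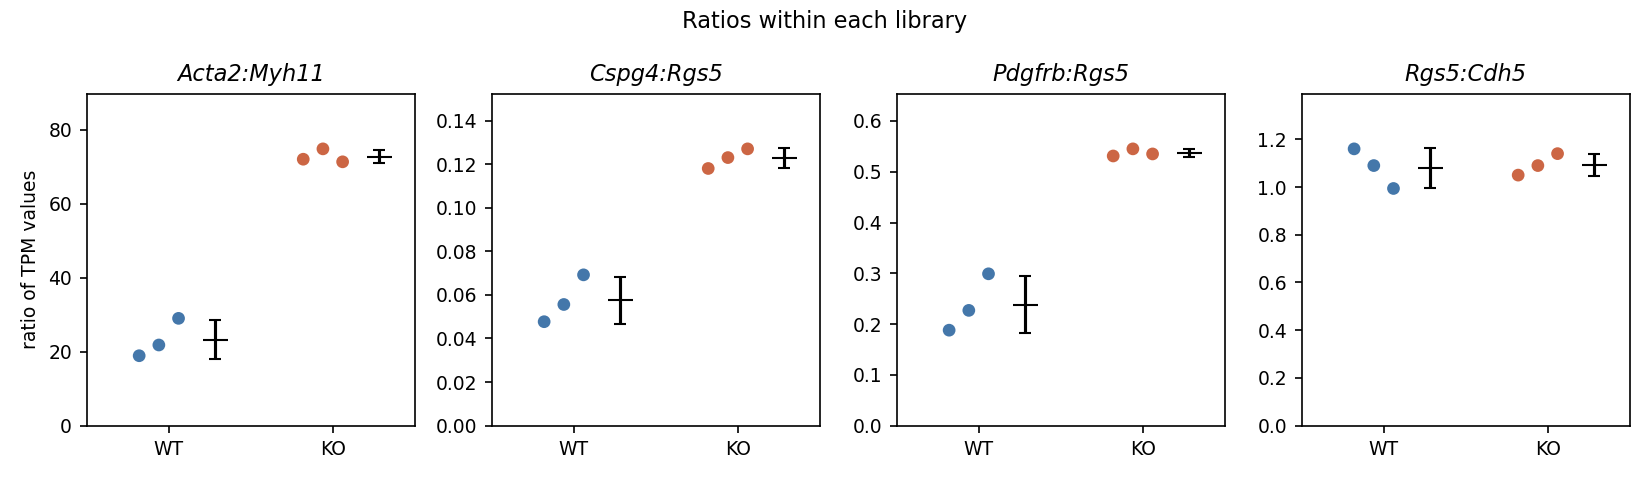
Ratios of TPM within each library (points: 3 WT in blue, 3 Gpr174-/Y, marked KO, in orange; bars: mean and SD; axes from 0). *Acta2* to *Myh11*, *Cspg4* to *Rgs5* and *Pdgfrb* to *Rgs5* are higher in every KO library, while *Rgs5* to *Cdh5* lies between 0.994 and 1.16 in all 6 libraries.

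Other genes of smooth muscle, in a list that also holds genes outside the contractile apparatus, went both ways. Of 14 tested, 6 were higher, 3 lower and 5 did not pass, with a median log2 fold change of 0.09, where 27.0% of all tested genes were higher and 27.6% lower. With total-count scaling 8 were higher and 1 lower (median 0.36), where 50.7% of all tested genes were higher and 2010 of the 14395 lower. *Actg2*, visceral smooth muscle actin, rose most (1.20, SE 0.35, adjusted p = 0.026), from 18, 47 and 67 counts in WT to 150, 125 and 103 in Gpr174-/Y libraries. The 3 lower genes were *Itga8*, an integrin chain, *Synpo2* and *Pdlim7*. *Synpo2*, an actin-bundling protein of Z-discs and smooth muscle, fell most (-0.73, SE 0.12, adjusted p = 0.00298). *Pdlim7*, an adaptor of actin filaments and the most abundant gene of this list, also fell (-0.42, SE 0.08, adjusted p = 0.00579), but not with total-count scaling (-0.15, adjusted p = 0.116).

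Of 10 transcriptional regulators of smooth muscle, 2 were higher, 3 lower and 5 did not pass (median -0.03), shares near those of all tested genes (27.0% higher and 27.6% lower). With total-count scaling 4 were higher and 1 lower (median 0.25), where 50.7% of all tested genes were higher and 2010 of the 14395 lower. *Klf4*, which represses contractile genes in smooth muscle cells and is also made by macrophages and endothelium, had 45.5, 44.8 and 43.4 scaled CPM in the WT libraries and 24.6, 22.7 and 20.9 in the Gpr174-/Y libraries (log2 fold change -0.97, SE 0.07, adjusted p = 0.000477). *Srf*, which encodes serum response factor itself, had -0.16 (SE 0.08, adjusted p = 0.129), and 0.11 with total-count scaling. *Myocd*, its smooth muscle coactivator myocardin, had 9, 4 and 9 counts in WT libraries and 29, 22 and 13 in the others. The groups did not overlap (log2 fold change 1.20, SE 0.42, adjusted p = 0.048), but the adjusted p was 0.0706 in DESeq2's Wald test, 0.0596 in limma voom, 0.145 without WT replicate 2 and 0.135 without Gpr174-/Y replicate 1.

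Of 15 further pericyte genes, 3 were higher, 7 lower and 5 did not pass (median log2 fold change -0.16), where 27.0% of all tested genes were higher and 27.6% lower. With total-count scaling 5 were higher and 4 lower (median 0.11), where 50.7% of all tested genes were higher and 2010 of the 14395 lower. *Vtn*, vitronectin, which pericytes secrete, fell most, from 43.2, 37.5 and 25.9 scaled CPM in WT to 18.0, 17.9 and 18.2 in Gpr174-/Y libraries (-0.98, SE 0.17, adjusted p = 0.00408). *Anpep*, the aminopeptidase CD13, which myeloid cells also carry, rose most (0.86, SE 0.16, adjusted p = 0.00521). *Mcam*, the adhesion molecule CD146 and the most abundant of this list, fell by 0.29 on the log2 scale (SE 0.06, adjusted p = 0.00803), but had -0.02 with total-count scaling (adjusted p = 0.787).

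Of 10 receptors and cyclic GMP enzymes that set vessel tone, 2 were higher and 5 lower (median -0.39), against 27.0% and 27.6% of all tested genes. With total-count scaling 3 were higher and 1 lower (median -0.12), where 50.7% of all tested genes were higher and 2010 of the 14395 lower. The median of all tested genes was then 0.28. The endothelin receptors went apart. *Ednra*, which mediates constriction in smooth muscle, rose (0.54, SE 0.09, adjusted p = 0.00266), and *Ednrb*, the receptor that endothelium carries, fell (-0.78, SE 0.10, adjusted p = 0.00133). Among 13 signals, receptors and adhesion genes of mural cell recruitment, 7 were higher and 4 lower (median 0.26), against 27.0% and 27.6% of all tested genes. Higher were *Pdgfd*, *Angpt2*, *Tgfb1*, *Tgfbr1*, *Tgfbr2*, *Jag1* and *Cdh2*, and lower were *Angpt1*, *Tek*, *Eng* and *S1pr1*. With total-count scaling 8 were higher and 2 lower (median 0.53), against 50.7% and 2010 of the 14395 tested genes. *Pdgfb*, the B chain of platelet-derived growth factor, had -0.04 (SE 0.06, adjusted p = 0.638), and 0.24 with total-count scaling (adjusted p = 0.00765). *Cdh2*, N-cadherin, which joins pericytes to endothelium and also marks immature muscle cells, rose most, from 13.4, 20.0 and 24.4 to 45.7, 48.2 and 47.0 scaled CPM (1.28, SE 0.19, adjusted p = 0.0021). *Tgfb1*, the most abundant of them and an inducer of smooth muscle genes, also rose (0.55, SE 0.10, adjusted p = 0.00389). *S1pr1*, the endothelial sphingosine phosphate receptor, fell by 0.61 on the log2 scale (SE 0.04, adjusted p = 0.000477).

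**Figure D5:**
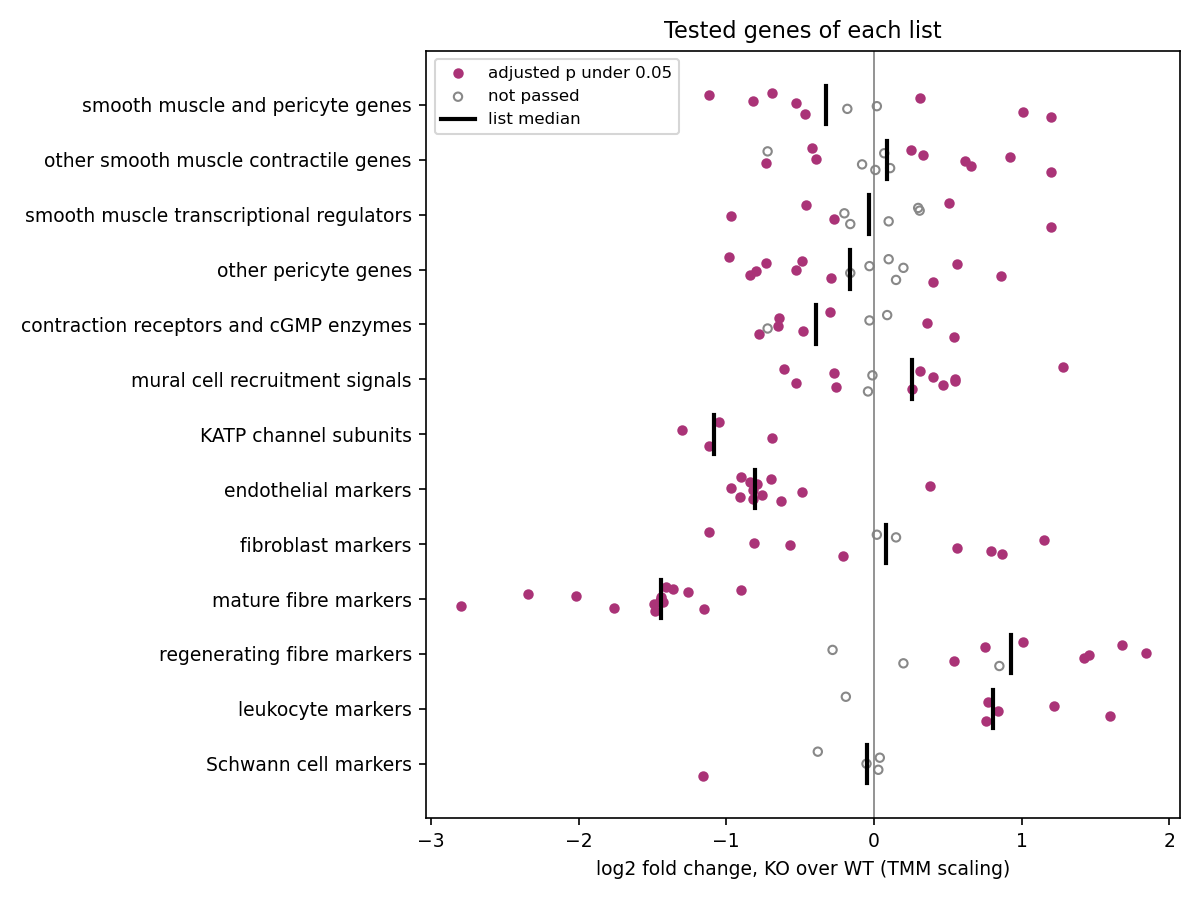
Log2 fold change, Gpr174-/Y over WT with TMM scaling, of each tested gene (points, filled where the adjusted p was under 0.05) in the lists, with the list median as a black bar. The 10 smooth muscle and pericyte genes spread from -1.12 to 1.20, whereas the 4 KATP subunits and the 15 mature fibre markers lie wholly below 0.

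Markers of other cells of the muscle also differed in the same libraries. Of 10 fibroblast markers 4 were higher and 4 lower, where 27.0% of all tested genes were higher and 27.6% lower. Their summed TPM was 6125 to 9886 in WT and 16355 to 16553 in Gpr174-/Y libraries. Most of that sum came from the 4 higher genes, *Col1a1*, *Col1a2*, *Col3a1* and *Postn*, while *Pdgfra*, *Dcn*, *Lum* and *Pi16* were lower with TMM scaling. With total-count scaling 6 were higher and 3 lower, where 50.7% of all tested genes were higher and 2010 of the 14395 lower. *Pdgfra* then had 0.07 (adjusted p = 0.387), and its TPM was 20.5 to 22.4 in WT and 23.1 to 27.1 in Gpr174-/Y libraries. The collagen gene *Col1a1* (log2 fold change 0.87, SE 0.19, adjusted p = 0.00916) and *Postn*, periostin of activated fibroblasts (1.15, SE 0.27, adjusted p = 0.0105), rose, while *Pi16*, a marker of resting fibroblasts, fell (-1.12, SE 0.14, adjusted p = 0.00139). Regenerating fibre markers were higher in 7 of 10 and lower in 0, against 27.0% and 27.6% of all tested genes. Their summed TPM was 6146 to 7384 in WT and 8582 to 10451 in Gpr174-/Y libraries, and *Mymx*, needed for myoblast fusion, rose most (1.84, SE 0.23, adjusted p = 0.00147). The part of these cells in the increase of *Acta2* and *Tagln* was not tested. *Acta2* TPM per *Col1a1* TPM was 0.135, 0.125 and 0.116 in WT and 0.161, 0.157 and 0.152 in Gpr174-/Y libraries, which did not overlap (exact permutation p = 0.1). *Acta2* TPM per *Postn* TPM was 0.229, 0.18 and 0.148 in WT and 0.202, 0.184 and 0.161 in Gpr174-/Y libraries, so these groups overlapped (exact permutation p = 1.0).

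Endothelial markers were lower in 11 of 12, where 27.6% of all tested genes were. With total-count scaling the count was also 11, where 2010 of the 14395 tested genes were lower. The summed TPM of these markers was 749 to 772 in WT and 577 to 612 in Gpr174-/Y libraries. *Cldn5* of tight junctions fell most (-0.97, SE 0.08, adjusted p = 0.000717) and *Vwf*, von Willebrand factor, was the exception (0.38, SE 0.05, adjusted p = 0.00205). Leukocyte markers were higher in 5 of the 6 tested out of 9, where 27.0% of all tested genes were. With total-count scaling 5 were also higher, where 50.7% of all tested genes were. They were led by the integrin gene *Itgam* of myeloid cells (1.60, SE 0.22, adjusted p = 0.0018), and summed to 246 to 463 TPM in WT and 877 to 1022 in Gpr174-/Y libraries. The summed TPM of 5 Schwann cell markers was 106 to 123 in WT and 117 to 153 in Gpr174-/Y libraries. None of the markers of these lists was at 0 in all libraries (0 genes), and the part of these cells in the changes of the mural genes was not tested.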

How the data were processed

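RNA from 3 WT and 3 Gpr174-/Y ischemic gastrocnemius muscles was sequenced by BGI (the methods name BGISEQ-500, the labels an Illumina TruSeq kit). The authors deposited expected counts, estimated reads per RefSeq transcript that need not be whole, with no normalization, for 58843 transcripts. They also deposited FPKM and TPM, scaled for length and depth. Their group means were not used. The submitters' processing notes name HISAT2 2.0.4, Bowtie2 2.2.5, RSEM 1.2.12 and GRCm39, without roles. Strand use is not given in the sources used here. Symbols (99.7% of genes) and promoters are from RefSeq on GRCm38.p6, so no coordinate of the files is given.

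Expected counts were summed per Entrez gene, rounded, filtered (filterByExpr) and compared with edgeR 4.0.16 (TMM, robust quasi-likelihood F-test, R 4.3.3), with Benjamini-Hochberg adjustment over 14395 genes and thresholds of 0.05 and, for the stricter count, an absolute log2 fold change of 1. Standard errors are the absolute log2 fold change divided by the square root of F. The test was also run on simulated counts with 200 changed genes and independent libraries. These data differ from that setting, with 54.6% of tested genes passing, so the run does not show how the test behaves here. The methods give 3 mice per group, but the labels do not say that each library is another mouse, so p-values measure the spread between these libraries. Python 3.11.15, numpy 2.4.6 and scipy 1.17.1 gave ratios and exact tests.

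The 10 genes and all lists were chosen with earlier results of these data known. Named are the 10 genes, the KATP subunits, in each other list the most abundant gene and the extremes of log2 fold change, and *Gpr174*, *Acta1* and *Actc1*. Some items that this rule names are not reported here. *Pdgfrb*, the ratios and the comparison of replicates 1 and 3 alone were chosen after values were seen. Alternatives were upper-quartile, DESeq2 1.42.0, total-count and fibre-free total scaling, DESeq2's Wald test, limma 3.58.1 (voom, and log2(FPKM + 1) or log2(FPKM + 0.1) for genes with FPKM of at least 1 in 3 libraries), every gene with a count, genes with a minimum of 10 counts per library, a replicate block and leaving out each library.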

Additional observations from a re-analysis of the deposited data

How the results depend on the processing

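Over 18 alternatives, *Acta2*, *Tagln*, *Cspg4*, *Rgs5*, *Kcnj8* and *Abcc9* kept their direction in 18, with an adjusted p under 0.05 in 17. *Myh11* and *Lmod1* were lower in 18, with an adjusted p under 0.05 in 15 and 14. With replicates 1 and 3 of each group only, 0 of the 10 genes passed, 0 passed both thresholds and 0 of all genes passed, the lowest adjusted p being 0.0542. The cause was not tested, and fewer samples enter that fit. *Cnn1* reversed to 0.08 with total counts, 0.11 on log2(FPKM + 1), 0.21 on log2(FPKM + 0.1) and 0.34 without WT replicate 3, and leaving out each library gave -0.48 to 0.34. *Smtn* reversed to -0.01 without WT replicate 3. *Srf* reversed to 0.11 with total counts, 0.12 on log2(FPKM + 1) and 0.13 on log2(FPKM + 0.1). The T cell gene *Cd3e* (log2 fold change -0.19, adjusted p = 0.664) reversed to 0.08 with total counts, 0.17 without WT replicate 2 and 0.13 with replicates 1 and 3 only, and leaving out each library gave -0.48 to 0.17. Leaving out each library gave 8 of the 10 genes every time, 2 to 3 past both thresholds (2 without WT replicate 1 and without Gpr174-/Y replicate 1, where *Tagln* had 0.82 and 0.98) and 5459 to 9166 of all genes. The replicate block gave 8 of the 10 genes and 6810 of all genes. Same-numbered libraries did not deviate together over all tested genes (correlations 0.00416, -0.00514 and -0.0162). Whether they share a step of preparation was not tested. *Cnn1* and *Myocd* had at most 72 and 29 counts in a library, so counting error adds to their spread, and its share was not tested.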

Other observations

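The transcript rows of the table divide some of these genes further, and are given as values only. *Acta2* had 2 rows. The larger one, NM_007392.3, held 77.6%, 78.9% and 82.0% of the gene's counts in WT and 79.2%, 79.7% and 79.2% in Gpr174-/Y libraries, and the groups overlapped (2-sided exact permutation test, p = 1.0). The largest row of *Smtn*, NM_013870.3, held 46.4%, 48.5% and 50.9% in WT and 42.9%, 44.6% and 46.2% in Gpr174-/Y libraries, with no overlap (exact permutation p = 0.1, the smallest that 3 against 3 can give).

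The division of *Myh11* and *Abcc9* among rows varied widely between replicates. The *Myh11* row NM_001161775.1 held 56.2%, 47.2% and 25.5% in WT and 25.0%, 33.4% and 39.4% in Gpr174-/Y libraries (exact permutation p = 0.4). The *Abcc9* row NM_001044720.1 held 17.2%, 20.7% and 2.41% in WT and 10.8%, 8.83% and 13.5% in Gpr174-/Y libraries (exact permutation p = 0.7), so no difference in isoform use is drawn from these rows.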
